A study of Homo sapiens with 16 samples.

Results

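SNARE proteins and the factors that assemble and disassemble SNARE complexes carry out the last step of vesicle traffic, the fusion of a vesicle with its target membrane. Their genes were taken from a table of read counts per gene by symbol: syntaxins and syntaxin-binding proteins (STX, STXBP), vesicle-associated membrane proteins (VAMP), SNAP23, SNAP25, SNAP29 and SNAP47, VTI1A and VTI1B, GOSR1 and GOSR2, BET1 and BET1L, SEC22A to SEC22C, NAPA, NAPB and NAPG, YKT6, NSF, USE1, BNIP1, SCFD1 and SCFD2. The table holds 48 such genes among 12676 in all. STX19, STXBP5L, STXBP6 and VAMP5 were not among its rows and were not analysed here, and 1 of the 48, STXBP5-AS1, is an antisense RNA that entered by its name only.

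The RNA came from H1299, a p53-null human line from a non-small cell lung carcinoma. Cells carried either a non-targeting shRNA (shCtrl) or an shRNA against YEATS2 (shYEATS2), a subunit of the ATAC histone acetyltransferase complex, with 2 libraries in each group. Both groups received lentivirus made in 293T cells, 8 µg/ml polybrene and, 48 h later, 2 µg/ml puromycin, with selection for 4 to 7 days per the labels, while the study's methods give a shorter selection. The knockdown group rests on a single shRNA sequence, so effects of YEATS2 loss and of that shRNA on other transcripts cannot be told apart. The series holds 16 samples, and its ChIP-seq samples were not used here.

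The libraries held 34718921 to 39417787 counted reads. YEATS2 itself had 4482 and 4104 scaled reads in shCtrl and 665 and 673 in shYEATS2, a log2 fold change of -2.68 (SE 0.10, FDR = 0.000583). Scaled reads are counts brought to a common library size, and FDR is the Benjamini-Hochberg adjusted p of edgeR's quasi-likelihood test over all 12676 genes, with a threshold of 0.01. Of the markers of the line, KRT8, KRT18, VIM, CDH2 and FN1 were listed, while KRT19, EPCAM, CDH1 and all 10 markers of blood, endothelial cells and fibroblasts were not. FN1 differed between the groups, with 1705 and 2152 scaled reads in shCtrl and 4649 and 5990 in shYEATS2 (log2 fold change 1.46, FDR = 0.00141), and KRT18, not past the threshold, had 20088 and 18402 in shCtrl and 13903 and 7983 in shYEATS2 (log2 fold change -0.81, FDR = 0.0283). KRT8, VIM and CDH2, also not past it, had log2 fold changes of 0.31, -0.37 and 0.36 (FDR = 0.0958, 0.0390 and 0.0261). The epithelial (KRT8, KRT18) and the mesenchymal (VIM, CDH2, FN1) markers thus each went both ways. Of 3 neuronal markers SYP and SYT1 were listed, with sums of 550 to 597 scaled reads in shCtrl and 879 to 969 in shYEATS2, and RBFOX3 was not.

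A SNARE complex is a bundle of helices with positions named after the central residue of each helix. Syntaxins supply the Qa helix, proteins such as GOSR1 or VTI1A the Qb helix, proteins such as BET1 or STX6 the Qc helix, and VAMP proteins the R helix, while the SNAP23 family supplies Qb and Qc together. Each compartment uses its own set, SM proteins such as SCFD1 guide assembly on the syntaxin, and the ATPase NSF with its SNAP adaptors (NAPA, NAPB, NAPG) takes spent complexes apart. In epithelial tumour cells these steps serve constitutive secretion, receptor recycling, lysosomal delivery and autophagy.

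Transcripts of the fusion machinery moved in both directions. Of the 48 genes, 11 rose in shYEATS2 (22.9%), 9 fell (18.8%) and 28 were not past the threshold. Over all genes tested, 12.9% rose and 12.5% fell, 25.3% in all. At an unadjusted p under 0.05, 25 of the 48 were higher and 11 lower, against 28.7% and 27.8% of all genes. Those that rose included STX3, STX6, SNAP25, STX1A, STX12, SCFD1, SEC22B, STXBP5, STX5 and SNAP23, and the 9 that fell were SCFD2, STX17, STX2, VAMP7, SNAP29, GOSR1, STX10, VAMP3 and SEC22C. The log2 fold changes ran from -1.28 (SCFD2) to 1.75 (STX3), with a median of 0.33 against -0.0019 over all genes, and 31 of the 48 lay above 0. Libraries of the groups did not overlap for 44 of the 48 genes, 29 higher and 15 lower in shYEATS2, while 79.6% of all genes showed no overlap. The counts by unadjusted p, by sign and by overlap include VAMP8 and STXBP5-AS1 on the higher side. Both are in the table only through their higher group.

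The split differed most with total count scaling. With RLE scaling 12 of the 48 rose and 9 fell (13% and 12.7% of all genes), and with upper quartile scaling 13 rose and 8 fell (14.4% and 12.6%). Scaled by total counts in place of TMM, 21 of the 48 rose and 6 fell, with a median of 0.45, while 18.6% of all genes rose, 9.2% fell and their median moved to 0.12. In every alternative test, scaling, filter, threshold and left-out library tried, 9 of the 20 called genes stayed past their threshold: STX3, STX6, SNAP25, STX1A and STX12 among those that rose and SCFD2, STX17, STX2 and VAMP7 among those that fell. Without shCtrl replicate 1, 6 of the 48 rose and 4 fell, beside 6.11% and 6.71% of all genes. Without shCtrl replicate 2, 6 rose and 6 fell (all genes 6.96% and 7.25%). Without shYEATS2 replicate 1, 13 rose and 8 fell (15.6% and 16%), and without shYEATS2 replicate 2, 5 rose and 6 fell (7.83% and 8.36%). By test, 22 rose and 11 fell with exactTest (20.5% and 19.7% of all genes), 18 and 11 with DESeq2 (17% and 17.3%), and 12 and 8 with limma-trend (13% and 12.8%). The 22 include VAMP8, which is listed only through its higher group.

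On GRCh37, the 9 genes that kept their call are STX3 at chr11:59480929-59573355, STX6 at chr1:180941848-180992257, SNAP25 at chr20:10153043-10288906, STX1A at chr7:73113536-73134002, STX12 at chr1:28099730-28150954, SCFD2 at chr4:53739149-54232233, STX17 at chr9:102668936-102736816, STX2 at chr12:131274145-131323799 and VAMP7 at chrX:155111008-155173433. STX6, STX1A, SCFD2 and STX2 are on the minus strand and the others on the plus strand. All 9 are protein-coding.

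**Figure D1:**
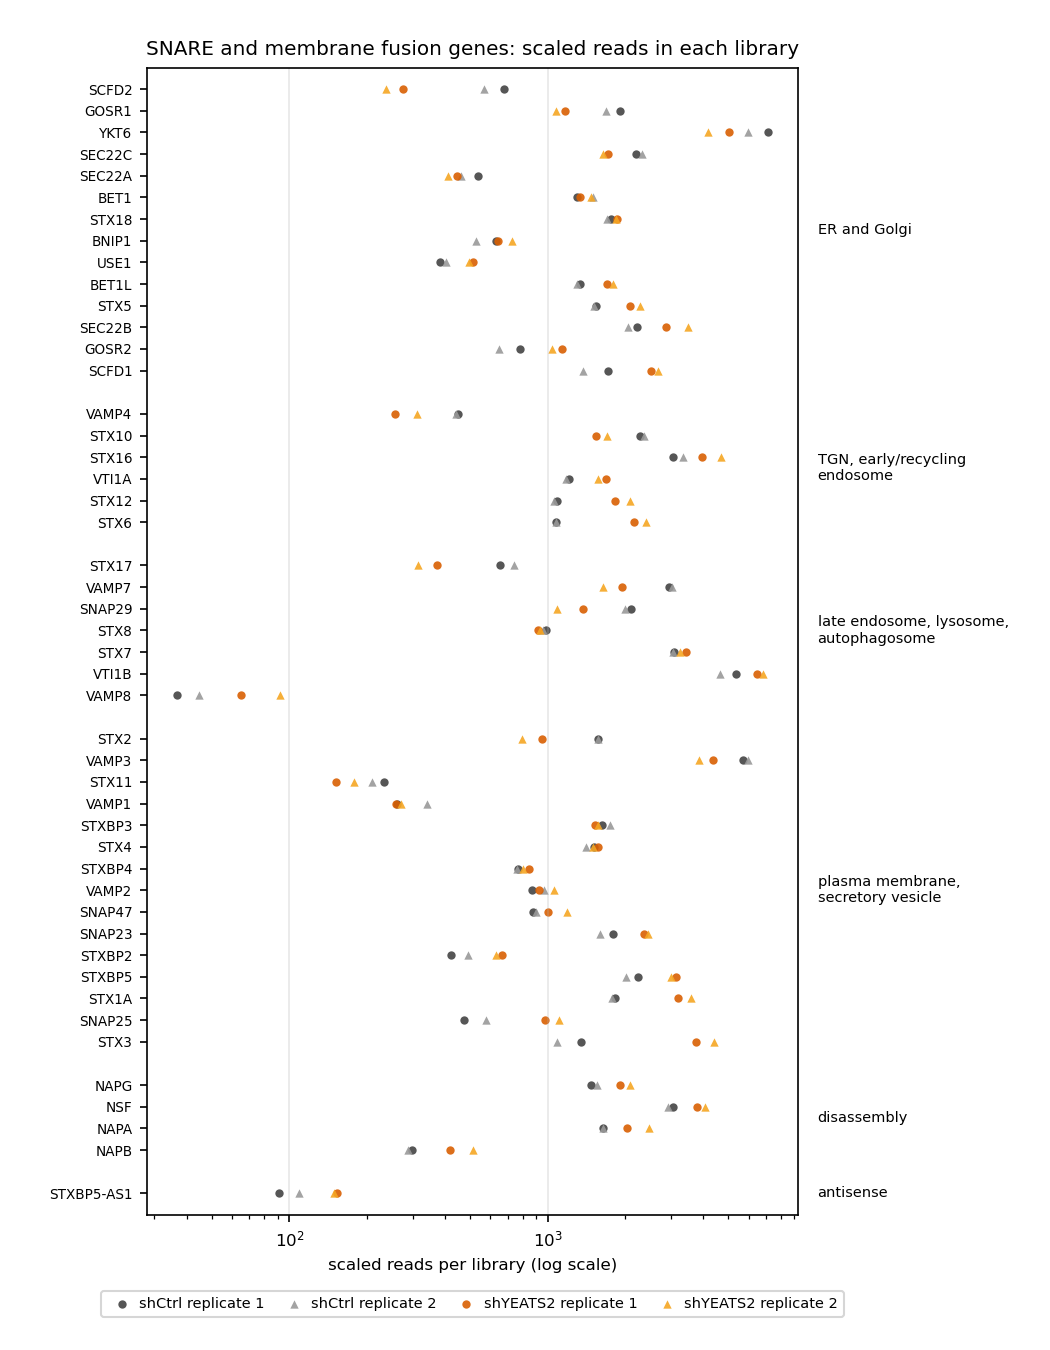
Scaled reads of 47 of the 48 genes in each of the 4 libraries (horizontal log axis), grouped by compartment, with shCtrl in grey and shYEATS2 in orange. STX3 lies between 1091 and 1350 in shCtrl and between 3769 and 4416 in shYEATS2, while BET1 libraries of the groups intermingle.

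**Figure D2:**
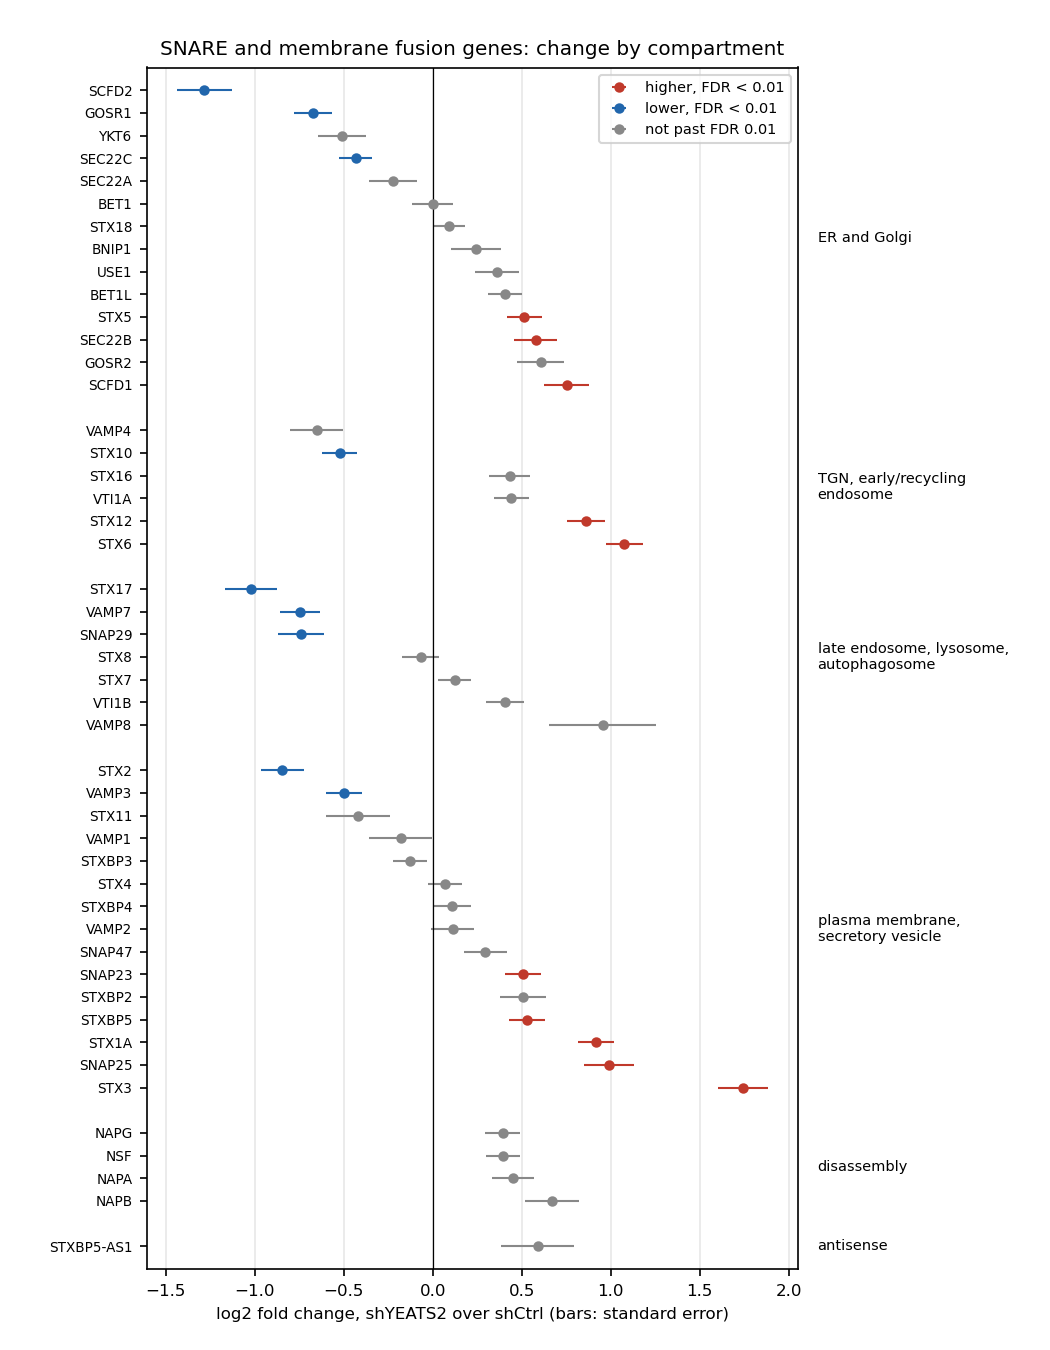
Log2 fold change of shYEATS2 over shCtrl with its standard error for the same 47 genes, in the same order, with red points higher and blue points lower at FDR under 0.01 and grey points not past it. The late endosome group holds 3 blue and no red points, and the plasma membrane group as drawn holds 5 red and 2 blue points.

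At the endoplasmic reticulum (ER) and Golgi, 3 of 14 genes rose and 3 fell (12.9% and 12.5% of all genes), with a median log2 fold change of 0.17. The SM proteins of this step moved apart. SCFD1 (the human Sly1), which binds the Golgi syntaxin STX5, had 1712 and 1371 scaled reads in shCtrl and 2510.5 and 2682 in shYEATS2, and rose by 0.75 on the log2 scale (SE 0.13, FDR = 0.00439). Its relative SCFD2 had 680.0 and 566 scaled reads in shCtrl and 276 and 236 in shYEATS2, and fell by 1.28 (SE 0.16, FDR = 0.00168), the lowest log2 fold change of the 48 genes. Both shYEATS2 libraries lay above both controls for SCFD1 and below them for SCFD2.

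STX5, the Qa SNARE of ER to Golgi and intra-Golgi fusion, had 1545 and 1509 scaled reads in shCtrl and 2077 and 2287 in shYEATS2 (log2 fold change 0.52, SE 0.10, FDR = 0.00654). Its R partner for ER vesicles, SEC22B, rose from 2221 and 2038 to 2865 and 3488 scaled reads (log2 fold change 0.58, SE 0.12, FDR = 0.00985). SEC22B has near-identical pseudogene copies, so its reads may be split among them and its value is uncertain. The alternative Qb partners of STX5 are GOSR2 on the ER side and GOSR1 within the Golgi. GOSR1 fell from 1903 and 1684 to 1168 and 1082 scaled reads (log2 fold change -0.67, SE 0.11, FDR = 0.00387). GOSR2 had 781 and 645 scaled reads in shCtrl and 1133 and 1039 in shYEATS2, just outside the threshold (log2 fold change 0.61, SE 0.13, FDR = 0.0102). For both, the groups did not overlap, as for 79.6% of all genes.

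The remaining subunits of the STX5 complexes were not past the threshold. The Golgi R SNARE YKT6, which lacks a transmembrane helix, had 7158 and 5945 scaled reads in shCtrl and 5044 and 4162 in shYEATS2 (log2 fold change -0.51, SE 0.14, FDR = 0.0215). The Qc SNARE BET1 had 1298 and 1505 in shCtrl and 1334 and 1467 in shYEATS2, with a log2 fold change of -0.00033 (SE 0.12). Its intra-Golgi relative BET1L had 1340 and 1294 in shCtrl and 1699 and 1789 in shYEATS2 (log2 fold change 0.41, SE 0.09, FDR = 0.0134). Of these 3 genes, YKT6 was lower and BET1L higher in both shYEATS2 libraries, and BET1 overlapped.

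The retrograde Golgi to ER complex of STX18 (Qa), BNIP1 (Qb) and USE1 (Qc) gave log2 fold changes of 0.09, 0.24 and 0.36, with FDR values of 0.441, 0.188 and 0.0479. SEC22A and SEC22C resemble SEC22B but lack a SNARE motif. SEC22C fell from 2207 and 2316 to 1708 and 1644 scaled reads (log2 fold change -0.43, SE 0.09, FDR = 0.00983), and SEC22A did not pass the test (log2 fold change -0.22, FDR = 0.211). With a library left out, log2 fold changes ran from -0.76 to -0.59 for GOSR1, -0.47 to -0.40 for SEC22C, 0.44 to 0.58 for STX5, 0.43 to 0.71 for SEC22B and 0.60 to 0.92 for SCFD1, and each lost its call in some of these fits. GOSR1 was not past the threshold without shCtrl replicate 1 (FDR = 0.0239) or shYEATS2 replicate 2 (FDR = 0.0110), SCFD1 without shCtrl replicate 2 (FDR = 0.0184) or shYEATS2 replicate 2 (FDR = 0.0116), STX5 and SEC22B when any library other than shYEATS2 replicate 1 was left out (FDR = 0.0182 to 0.0396 and 0.0240 to 0.0491), and SEC22C whichever library was left out (FDR = 0.0128 to 0.0702).

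The 3′ untranslated regions (UTRs) of SCFD2 and GOSR1 hold 7-base words, AAGTTCA or CAAGTTC, that an earlier examination of these same libraries had picked out among lowered transcripts. They are shown because 5 of the 9 lowered genes hold a word. The sites below are on the transcript strand of the canonical GENCODE transcript, in GRCh37 coordinates, within 1 exon each, and with the word or the overlapping words in capitals and 11 flanking bases on each side. SCFD2 has 1 site at chr4:53739812-53739841 (minus strand), and GOSR1 has sites at chr17:28851284-28851312 and chr17:28852455-28852483 (plus strand).
SCFD2: gattccacctaCAAGTTCAttagttctaaa
GOSR1 upstream site: atgagaaatcaCAAGTTCtttcttgatga
GOSR1 downstream site: atcagagaagtAAGTTCAttgattaaatt

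At the trans-Golgi network (TGN) and the early and recycling endosomes, 2 of 6 genes rose and 1 fell, with a median log2 fold change of 0.44. Over all genes, 12.9% rose and 12.5% fell. STX6, a Qc SNARE of the TGN and early endosomes, had 1080.3 and 1079 scaled reads in shCtrl and 2152 and 2404 in shYEATS2 (log2 fold change 1.08, SE 0.10, FDR = 0.00107). STX12 (also called syntaxin 13), the Qa SNARE of recycling endosomes, rose from 1088 and 1059.9 to 1826 and 2075 scaled reads (log2 fold change 0.86, SE 0.11, FDR = 0.00174). Both genes had about equal controls and no overlap between groups.

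STX10, the closest relative of STX6, went the other way. It had 2269 and 2368 scaled reads in shCtrl and 1536 and 1692 in shYEATS2 (log2 fold change -0.52, SE 0.10, FDR = 0.00636). The call was lost without shCtrl replicate 1 (FDR = 0.0237), shCtrl replicate 2 (FDR = 0.0366) or shYEATS2 replicate 1 (FDR = 0.0130). The other subunits of the STX6 complex at the TGN lay on either side of 0. STX16, its Qa SNARE, had 3063 and 3352 scaled reads in shCtrl and 3977 and 4683 in shYEATS2 (log2 fold change 0.43, FDR = 0.0210). VTI1A, its Qb SNARE, had 1214 and 1181 in shCtrl and 1684 and 1568 in shYEATS2 (log2 fold change 0.44, FDR = 0.0112). VAMP4, its R SNARE, had 451 and 443 in shCtrl and 256 and 311 in shYEATS2 (log2 fold change -0.65, FDR = 0.0123). None of STX16, VTI1A and VAMP4 was past the threshold. The groups did not overlap for any of them, as for 79.6% of all genes.

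In the late endosome, lysosome and autophagosome group, 3 of 7 genes fell and none rose by edgeR's quasi-likelihood test, with a median log2 fold change of -0.07. Over all genes, 12.5% fell and 12.9% rose. At an unadjusted p under 0.05, 2 of the 7 were higher, VTI1B and VAMP8 (28.7% of all genes). The edgeR exactTest called these 2 higher, DESeq2 VTI1B only and limma-trend 0 (20.5%, 17% and 13% of all genes). VAMP8 is in the table only through its higher group, so it could not have counted as lower. STX17, the autophagosomal Qa SNARE, had 654 and 743 scaled reads in shCtrl and 374 and 314 in shYEATS2, and fell by 1.02 on the log2 scale (SE 0.14, FDR = 0.00254). SNAP29, the Qbc SNARE that joins STX17, had 2107 and 1992 in shCtrl and 1369 and 1083 in shYEATS2, and fell by 0.74 (SE 0.13, FDR = 0.00504). VAMP7, a lysosomal R SNARE that also serves lysosome exocytosis, had 2957 and 3022 in shCtrl and 1939 and 1632 in shYEATS2, and fell by 0.74 (SE 0.11, FDR = 0.00312). These 3 genes showed no overlap between the groups, as did 79.6% of all genes.

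SNAP29 was not past the threshold without shCtrl replicate 1 (log2 fold change -0.71, FDR = 0.0165). VAMP7 lies in a region shared by the X and Y chromosomes and is annotated on both, so reads that map to either copy may have been set aside. The other R SNARE that can pair with STX17 and SNAP29 is VAMP8, which had 36.6 and 44.5 scaled reads in shCtrl and 64.9 and 91.9 in shYEATS2 (log2 fold change 0.95, SE 0.30, FDR = 0.0365). It was the least abundant of the 48 genes by scaled reads, and the table lists only genes with a highest count of at least 101, so a gene at this level is listed through its higher group. The late endosomal complex of STX7 (Qa), VTI1B (Qb) and STX8 (Qc) had no call. STX7 had 3093 and 3053 scaled reads in shCtrl and 3436 and 3257 in shYEATS2 (log2 fold change 0.12), STX8 had 989 and 960.1 in shCtrl and 921 and 937 in shYEATS2 (log2 fold change -0.07), and VTI1B had 5378 and 4664 in shCtrl and 6453 and 6849 in shYEATS2 (log2 fold change 0.41, FDR = 0.0201).

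Of the 7 genes of this group, 5 hold a word in the 3′ UTR: the 3 that fell, and STX7 and VTI1B, whose log2 fold changes were 0.12 and 0.41. A word occurs in 19.1% of all genes and in 29.4% of all that fell. The sites in the genes that fell are chr9:102735273-102735301 (plus strand) for STX17, chr22:21242309-21242337 (plus strand) for SNAP29 and chrX:155172234-155172262 (plus strand) for VAMP7, printed as above.
STX17: attaatattaaAAGTTCAggggtattttt
SNAP29: taacacctcacCAAGTTCttccagcaaaa
VAMP7: tttcaggaataAAGTTCAgtgtgctgatc

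At the plasma membrane and on secretory vesicles, 6 of 16 genes rose and 2 fell (12.9% and 12.5% of all genes), with a median log2 fold change of 0.20. STX3, a Qa SNARE of the apical membrane in epithelia, had 1350.3 and 1091 scaled reads in shCtrl and 3769 and 4416 in shYEATS2, a log2 fold change of 1.75 (SE 0.14, FDR = 0.000881). STX1A, the syntaxin of neurotransmitter and hormone release, rose from 1828 and 1767 to 3197 and 3593 scaled reads (log2 fold change 0.92, SE 0.10, FDR = 0.00138). SNAP25, its Qbc partner in neurons and endocrine cells, rose from 473 and 578 to 977 and 1110.4 (log2 fold change 0.99, SE 0.14, FDR = 0.00259). For each of these genes both shYEATS2 libraries lay above both controls by more than the spread within either group.

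VAMP2, the R partner of STX1A and SNAP25 in neurons, had 866 and 964 in shCtrl and 926 and 1054 in shYEATS2, overlapping between groups (log2 fold change 0.11, FDR = 0.462). It did not pass the test. The neuronal marker sums given above rose through SYT1, which had 236 and 284 scaled reads in shCtrl and 617 and 712 in shYEATS2. SYP went the other way, with 314 and 312 scaled reads in shCtrl and 262 and 257 in shYEATS2 (log2 fold change -0.27, FDR = 0.149). The part of other cell types in the result was not tested.

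SNAP23, the ubiquitous relative of SNAP25, rose from 1789 and 1594 to 2363 and 2446 scaled reads (log2 fold change 0.51, SE 0.10, FDR = 0.00754). The opposite strand of its canonical transcript carries a long noncoding RNA over 60.4% of its length, and with a library kit that keeps no strand the reads of the pair cannot be told apart. STXBP5 (tomosyn), a regulator that occupies syntaxin with its R-like motif, rose from 2241 and 2005 to 3132 and 2993 (log2 fold change 0.53, SE 0.10, FDR = 0.00678). Its antisense RNA STXBP5-AS1 shares some exon bases with it and had 91.5 and 108 scaled reads in shCtrl and 152 and 149 in shYEATS2. With 85 and 100 raw reads in shCtrl, STXBP5-AS1 is in the table only through its higher group. Its log2 fold change of 0.59 (SE 0.20), not past the threshold, is therefore given as a description. Left out in turn, the libraries gave FDR values of 0.0111 to 0.0535 for STXBP5, none under the threshold, and SNAP23 was called only without shYEATS2 replicate 1 (FDR = 0.0196 to 0.0618 in the other fits).

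STX2 and VAMP3 were the genes of the plasma membrane group that fell. STX2, a syntaxin of surface delivery and of cytokinesis, had 1564 and 1565 scaled reads in shCtrl and 948 and 795 in shYEATS2 (log2 fold change -0.85, SE 0.12, FDR = 0.00251). VAMP3 (cellubrevin), the R SNARE of recycling vesicles, had 5698 and 5960.0 in shCtrl and 4375 and 3864 in shYEATS2 (log2 fold change -0.50, SE 0.10, FDR = 0.0082). VAMP3 lost its call without shCtrl replicate 1 (FDR = 0.0308), shCtrl replicate 2 (FDR = 0.0499) or shYEATS2 replicate 2 (FDR = 0.0217), while STX2 kept its call. Of the other 8 genes, STXBP2 (Munc18-2), an SM protein of STX3 and STX11, was nearest to the threshold (422 and 493 scaled reads in shCtrl, 668 and 632 in shYEATS2, log2 fold change 0.51, FDR = 0.0185). STX4, STXBP3, STXBP4, SNAP47, STX11, VAMP1 and VAMP2 gave log2 fold changes from -0.42 (STX11) to 0.29 (SNAP47).

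The disassembly group had no call by edgeR's quasi-likelihood test, and its 4 log2 fold changes lay above 0. NSF, the ATPase, had 3054 and 2918 scaled reads in shCtrl and 3781 and 4078 in shYEATS2 (log2 fold change 0.40, SE 0.10, FDR = 0.0151). Of its adaptors, NAPA (alpha-SNAP) had 1638 and 1644 in shCtrl and 2021 and 2459 in shYEATS2 (log2 fold change 0.45, FDR = 0.0201), NAPG 1474 and 1559 against 1900.3 and 2079 (0.39, FDR = 0.0175) and NAPB, the neuronal form, 298 and 289 against 421 and 512 (0.67, FDR = 0.0115). All 4 had an unadjusted p under 0.05 and groups that did not overlap, the edgeR exactTest called all 4 higher, DESeq2 3 and limma-trend 0. Of all genes, 28.7% were higher at that p, 79.6% did not overlap, and 20.5%, 17% and 13% were called higher by these tests in turn. NSF has a near-identical pseudogene, so its count is uncertain.

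By helix, 4 of 11 Qa SNAREs rose (STX3, STX1A, STX12, STX5) and 2 fell (STX17, STX2), beside 12.9% and 12.5% of all genes. Of 8 R SNAREs, 1 rose (SEC22B) and 2 fell (VAMP7, VAMP3), with a median log2 fold change of -0.34 against 0.12 for Qa. Of 5 Qb SNAREs, 1 fell (GOSR1), of 6 Qc SNAREs STX6 rose and STX10 fell, and of 4 Qbc SNAREs SNAP25 and SNAP23 rose and SNAP29 fell. Of 7 SM proteins and regulators, 3 rose, SCFD1 and STXBP5 among them, and SCFD2 fell. Leaving out SEC22B, NSF, VAMP7 and STXBP5-AS1, whose counts are uncertain, 10 rose and 8 fell of 44 genes. Leaving out also SNAP23, STXBP2 and NAPA, whose canonical transcripts share 60.4%, 86.2% and 45.2% of their bases with exons of another gene, 9 rose and 8 fell of 41 genes. The 41 are not free of shared exons: BET1L shares 31.05% with 1 gene and 20.52% with another, STXBP4 30.85% and STX16 29.29%. The median log2 fold change of 0.33 over the 48 genes became 0.27 over the 44 and 0.12 over the 41. These omissions were chosen after the data had been seen.

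Related genes that moved apart are seen without any scaling in the ratio of their raw reads within a library. The pairs were chosen after the values had been seen and carry no test, and with 2 libraries against 2 an exact permutation test cannot give a two-sided p under 0.333. The ratios are not corrected for transcript length, so only their difference between libraries can be read. STX6 to STX10 was 0.476 and 0.456 in shCtrl and 1.40 and 1.42 in shYEATS2, a 3.03-fold change. STX3 to STX2 went from 0.863 and 0.697 to 3.98 and 5.56 (6.06-fold), SCFD1 to SCFD2 from 2.52 and 2.42 to 9.09 and 11.4 (4.12-fold) and GOSR2 to GOSR1 from 0.410 and 0.383 to 0.970 and 0.960 (2.43-fold). The ratios of VTI1A to VTI1B and NAPA to NAPG overlapped between the groups, at 0.226 and 0.253 against 0.261 and 0.229 for the former and 1.11 and 1.05 against 1.06 and 1.18 for the latter. Of 11 pairs computed, these were the 2 whose groups overlapped.

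**Figure D3:**
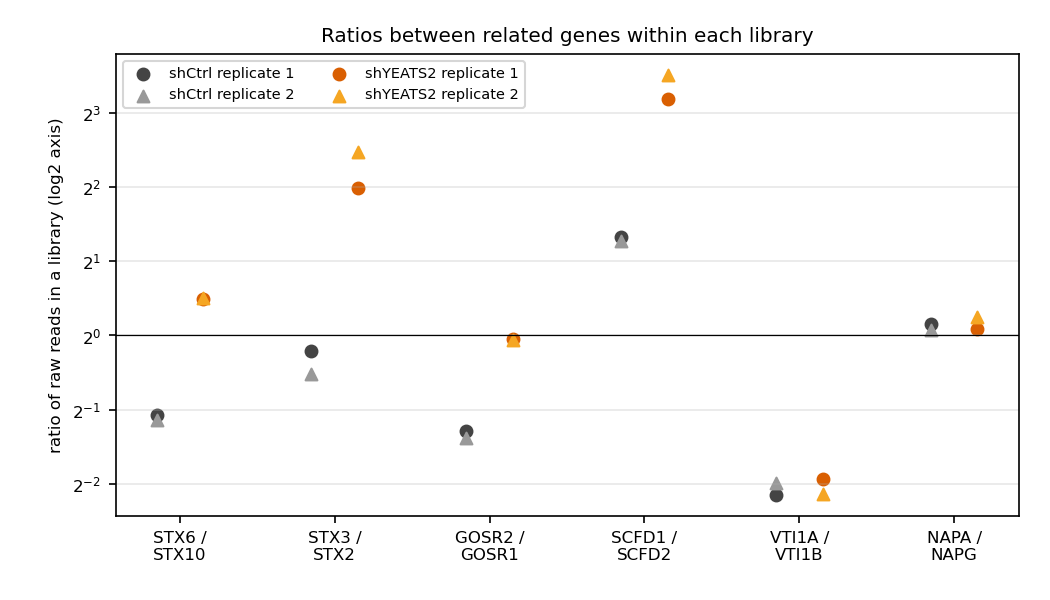
Ratio of raw reads between related genes in each library (vertical axis on a log2 scale), with shCtrl in grey and shYEATS2 in orange. The STX6 to STX10 ratio lies below 1 in both shCtrl libraries and above 1 in both shYEATS2 libraries, while VTI1A to VTI1B and NAPA to NAPG intermingle.

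The 3′ UTR words were counted over all genes with an annotated 3′ UTR in GENCODE. They occur in 19.1% of 11390 genes, in 29.4% of all genes that fell and in 14.8% of all that rose. Of the fusion genes, 14 of 46 hold a word: 5 of 9 that fell (SCFD2, STX17, VAMP7, SNAP29, GOSR1), 0 of 10 that rose and 9 of 27 not past the threshold. Of the 9, VAMP4 (2 sites), STX11 and VAMP1 had log2 fold changes below 0 and STXBP4, VAMP2, STX7, VTI1B, VTI1A and NAPB above 0. Genes with a word had a median log2 fold change of -0.30 and those without of 0.40. UTR length moves with the word: its median was 3839 bases with a word and 1400.5 without, and 2423 bases in the genes that fell and 1711 in those that rose. The part of UTR length in the difference was not tested, and since the words came from these libraries the counts are no independent evidence for them.

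**Figure D4:**
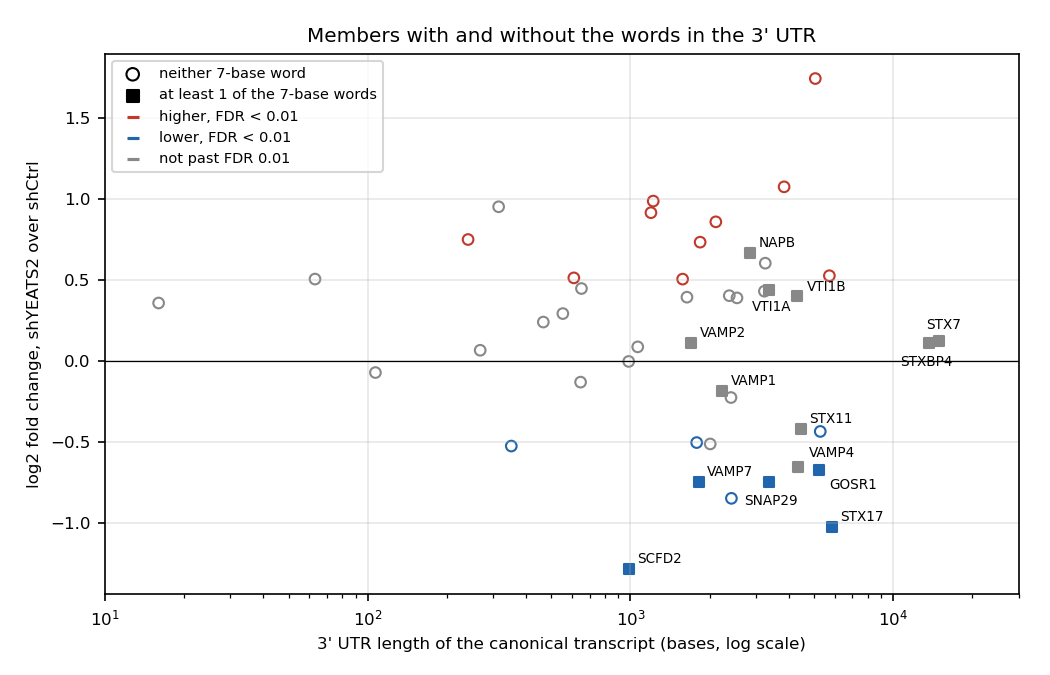
Log2 fold change against 3′ UTR length (horizontal log axis, bases) for the 46 genes with an annotated 3′ UTR, filled squares for those with at least 1 of the words and open circles for those with neither, coloured by call. Of the 9 blue points 5 are filled squares, and none of the 10 red points is.

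Vesicles are caught by tethers before SNAREs zip, and calcium sensors and other regulators gate the last step. Lists of such genes gave 82 of 102 names in the table, of which 11 rose (13.4%, near the 12.9% of all genes) and 4 fell (4.88%, against 12.5%), with a median log2 fold change of 0.12. Without shCtrl replicate 1, 4 rose and 0 fell (all genes 6.11% and 6.71%), without shCtrl replicate 2, 5 and 0 (6.96% and 7.25%), without shYEATS2 replicate 1, 11 and 2 (15.6% and 16%), and without shYEATS2 replicate 2, 6 and 0 (7.83% and 8.36%). The coiled-coil tethers of the Golgi and endosomes were the list with most calls, as 6 of 14 rose and none fell by edgeR's quasi-likelihood test (0 lower also at an unadjusted p under 0.05 and by exactTest, DESeq2 and limma-trend). GOLGA2 (GM130), a cis-Golgi tether, had 3394 and 3374 scaled reads in shCtrl and 5666 and 7105 in shYEATS2 (log2 fold change 0.92, FDR = 0.00235), GOLGB1 (giantin) had 2600 and 2799 against 4297 and 4889 (0.77, FDR = 0.00246), and GOLGA4, a TGN golgin, had 3570.1 and 3297 against 5033 and 5297 (0.59, FDR = 0.00394). Both shYEATS2 libraries lay above both controls for these 3 genes.

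Of 10 genes listed with the HOPS and CORVET tethers of endosomes and lysosomes, VPS11 rose (log2 fold change 0.53, FDR = 0.00674). VPS33A, the SM subunit, fell (-0.49, FDR = 0.0069). VIPAS39, in the same list but not a subunit of either tether, rose (0.76, FDR = 0.00179). COG4 of the COG complex (1 of 8 genes, log2 fold change -0.58), TRAPPC2 of the TRAPP complexes (1 of 13, -0.67) and VPS51 of GARP and EARP (1 of 6, -0.42) fell, with FDR values of 0.00553, 0.00679 and 0.0099. No gene of the exocyst (9 genes) or of the NRZ complex (3 genes) was called by the quasi-likelihood test. Over all genes, that test called 12.9% higher and 12.5% lower. At an unadjusted p under 0.05, 2 exocyst genes were higher and 2 lower, and 1 NRZ gene was lower, beside 28.7% higher and 27.8% lower of all genes. Among exocyst genes exactTest called 1 higher and 1 lower, DESeq2 1 lower and limma-trend 0, and among NRZ genes none of them called any. Of all genes, these tests in turn called 20.5%, 17% and 13% higher and 19.7%, 17.3% and 12.8% lower.

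Among calcium sensors, SYT1 had 236 and 284 scaled reads in shCtrl and 617 and 712 in shYEATS2 (log2 fold change 1.35, FDR = 0.00141). DYSF (dysferlin), a ferlin of membrane repair, had 6.46 and 5.42 in shCtrl and 43.2 and 91.9 in shYEATS2 . It is in the table only through its higher group, so it had to differ, and its log2 fold change of 3.49 (SE 0.56) is given as a description. Without DYSF, 10 of 81 tether and regulator genes rose. With either shYEATS2 library left out it did not meet the minimum of 10 reads in 2 libraries. UNC13B, a priming factor, had 3767 and 3780 in shCtrl and 5147 and 5298 in shYEATS2 (log2 fold change 0.47, FDR = 0.00651).

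**Figure D5:**
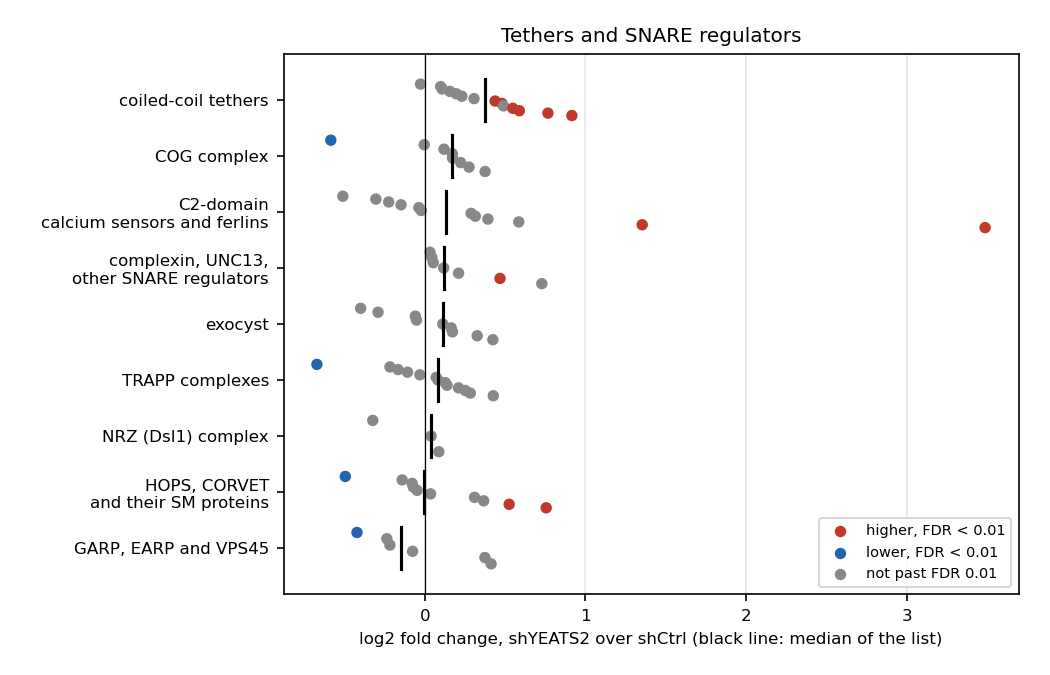
Log2 fold change of each tether and regulator gene by list, with the median of each list as a black line and points coloured by call. The coiled-coil tethers have the highest median, 0.37, with 6 red points, and DYSF lies alone at 3.49.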

How the data were processed

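RNA-seq of 2 shCtrl and 2 shYEATS2 libraries of H1299 was analysed, grouped by their labels. The study calls them biological replicates, but nothing names the cultures, so p-values measure the spread between these libraries. The authors counted reads per gene with HTSeq (0.6.1p1) at default settings on hg19 and deposited the raw counts, from a TruSeq mRNA kit that keeps no strand. The paper's methods name the RNA-Seq unified mapper and the submitters' processing notes TopHat2 (2.0.10). The gene annotation is not given in the sources used here. Deposited columns of the authors' own comparison (log2 fold change, p-value and FDR) were not used. The table's smallest highest count of a gene is 101.

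A gene needed 10 reads or more in 2 or more libraries, and all 12676 had them. The fit used the quasi-likelihood test of edgeR (version 4.0.16 under R 4.3.3) on raw counts with TMM scaling and Benjamini-Hochberg adjustment, at an FDR under 0.01. On counts simulated from these libraries for 12676 genes, 200 of them changed by 1 on the log2 scale, the test recovered 194 with 3 false calls. Every simulated gene had the same dispersion, and in the data 25.3% of genes were called. The simulation checks the fit only and does not give the recovery of smaller changes. Alternatives were edgeR's exactTest with TMM or total counts, DESeq2 1.42.0, limma-trend (limma 3.58.1, prior count 1), scaling by RLE, total counts or upper quartile, each library left out, an FDR under 0.05, the replicate number as a block, and either no count filter or one on a mean of 100. Symbols defined the genes, and all are named but 1, which is not reported here and is left out of the plots by gene, with values per library for those past the threshold and for the subunits of the STX5, STX6 and STX7 complexes. Of each tether or regulator list up to 3 called genes with the largest change are named. The genes and lists were chosen with earlier results of these data known. Positions and sequences come from GENCODE 44 lifted to GRCh37 and from the GRCh37 genome, and 98.3% of genes matched by Ensembl ID, 47 of the 48 fusion genes among them. A 3′ UTR is that of the canonical transcript. Depth was 34718921 to 39417787 reads a library, and the common biological coefficient of variation was 0.107.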

Additional observations from a re-analysis of the deposited data

How the results depend on the processing

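Of the 48 genes, the number that rose was 11, against 22 with exactTest and TMM, 24 with exactTest and total counts, 18 with DESeq2, 21 with total count scaling, 22 with the replicate block, 24 at an FDR under 0.05 and 5 to 13 with a library left out. The number that fell was 9, and 4 to 8 with a library left out. The median log2 fold change of 0.33 became 0.45 with exactTest on total counts and 0.45 with total count scaling, and 0.23 to 0.36 with a library left out. It was 0.27 and 0.12 over the 44 and 41 genes left when some genes with uncertain or shared counts were omitted. Among tethers and regulators 11 rose, against 19 with exactTest and TMM, 27 with exactTest and total counts, 18 with total count scaling, 19 with the replicate block, 23 at an FDR under 0.05 and 4 to 11 with a library left out, and 4 fell, against 0 with total count scaling, 7 at an FDR under 0.05 and 0 to 2 with a library left out. YEATS2 stayed past the threshold in every alternative. BET1, near 0, was 0.12 with exactTest on total counts and with total count scaling, 0.0017 with limma-trend, 0.017 with upper quartile scaling, 0.012 at a mean count of at least 100, 0.0014 with the replicate block and -0.11 to 0.11 with a library left out. STX8 was 0.051 with exactTest on total counts and with total count scaling, and VAMP1 ran from -0.37 to 0.029 with a library left out, above 0 without shCtrl replicate 2. The cause was not tested, except that a left-out library leaves a lone library assumed to vary like the other group. Replicate numbers were shared by the groups but no label ties them: the deviations of same-numbered libraries correlated at r = 0.403 over 12676 genes, with only 2 pairs. Of all genes 27.3% rose and 14% fell with exactTest on total counts. At an FDR under 0.05 these were 24.4% and 23.8%, and with the replicate block 21.6% and 21.4%. Of the 48 genes, none lost its call at an FDR under 0.05 or with the replicate block. With exactTest on total counts SEC22C lost its call, and VAMP4 was called lower. VAMP8 and STXBP5-AS1 had the fewest reads of the 48 and the highest standard errors, 0.30 and 0.20. Both are listed only through their higher group, so they could not have counted as lower. Both are among the 24 that rose with exactTest and total counts and the 24 at an FDR under 0.05. VAMP8 is also among the 22 that rose with exactTest and TMM and the 22 with the replicate block.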

Other observations

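Called genes lay farther from the control mean in shYEATS2 replicate 2 than in replicate 1 for 18 of 20 genes, 10 of 11 that rose and 8 of 9 that fell. The same count was not made over all called genes, so whether this is particular to the fusion genes was not tested. Per kilobase of canonical transcript, the highest levels in shCtrl were those of VAMP3, with 2676 scaled reads per kilobase, and YKT6, with 2368, and the lowest were those of STX11, with 40.1, and STXBP5-AS1, with 42.1. In shYEATS2 the highest were VAMP3 with 1891 and YKT6 with 1664, on the same scale.

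The E-box CACGTG (a palindrome, so the same on both strands) occurred in 10.2% of 12392 promoters, taken as 250 bases before to 50 after the start, and in 8 of 47 promoters of the fusion genes, 1 of 10 that rose (STX6) and 3 of 9 that fell (SCFD2, STX2, SNAP29). TCACGTG on either strand, which contains the former, occurred in 6.11% of promoters and in 4 of 47 (STX6, SNAP29, NAPA, GOSR2). The match in STX6 lies at chr1:180992135-180992163 on the minus strand of GRCh37, with the word in capitals: atatgccctggTCACGTGagcggggtgcg.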
